A study of Homo sapiens with 6 samples.

Results

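The genes described here are the zinc transporters of the SLC39A and SLC30A families, the metallothioneins and the zinc-sensing factor MTF1 in REH cells treated with S3I-201. REH is an established cell line of human acute lymphoblastic leukaemia of the B-precursor type, and S3I-201 is a small molecule directed at STAT3. Members were all entries of the authors' deposited table whose symbol starts with SLC30A or SLC39A, plus MTF1 and 8 named metallothionein genes, which gave 34 of 26364 genes. These comprise 14 SLC39A genes, 10 SLC30A genes, 8 metallothioneins, MTF1 and SLC39A12-AS1, an antisense RNA that the symbol rule takes along and that encodes no transporter. The treated group was kept for 6 h with 50 µM S3I-201 and the control group for 6 h with the solvent DMSO, both in serum-containing medium. Each of the 2 groups held 3 RNA-seq libraries from independent experiments of this 1 cell line.

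The authors' deposited table pools all 6 libraries and gives each gene 1 mean normalized count and 1 log2 fold change with its p-values, so that no value per library can be given for most members. The table does not state which group is the reference. Positive fold changes were read as higher with S3I-201, and all directions below would be the other way round if the authors had used the opposite order. Size factors recovered from genes with single reads ranged from 0.573 to 1.27, which corresponds to about 6600000 to 14500000 counts per library. Of 11 B-precursor markers, 10 had reads, with means up to 13622 in the authors' deposited table, and VPREB1 was at 0. Of the 9 with an adjusted p, CD24, a surface protein, was lower, at -0.61 on the log2 scale (DESeq2 adjusted p = 0.00505), and 8 did not pass. All 9 values were below 0, with a median of -0.18 and DNTT, the terminal transferase, at -0.31 with an unadjusted p of 0.0163 by the authors' DESeq2. Of all 11912 genes with an adjusted p, 5.90% passed 0.05 and 6387 had values below 0, with a median of -0.02. Of 13 markers of other cell types 7 were at 0, including CD3E, HBB and EPCAM, while the myeloid gene MPO had a mean of 978 in the authors' deposited table. Of the 3 with an adjusted p, 0 passed and 0 had an unadjusted p under 0.05, and the smallest DESeq2 adjusted p-values were 0.677 for MPO and 0.769 for COL1A1.

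Zinc is a cofactor of very many enzymes and transcription factors, and free zinc in the cytosol is kept low. SLC39A proteins, also called ZIPs, move zinc into the cytosol from outside the cell or from organelles, and SLC30A proteins, also called ZnTs, move it out of the cytosol or into organelles. Metallothioneins are small proteins rich in cysteine that bind zinc and copper. When zinc rises, MTF1 binds metal response elements in the promoters of metallothionein genes and of SLC30A1 and activates them.

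The promoter sequences show how unequally the metal response element is spread over the genes that could be searched. The core was searched as TGCACNC and TGCGCNC on both strands in the 250 bases before each RefSeq start site (GRCh38.p14), with overlapping matches counted separately. Windows were found for 25 of the 34 members. Those without one were the metallothioneins MT1E, MT1F, MT1G, MT1M and MT3, together with SLC30A8, SLC39A4, SLC39A14 and SLC39A12-AS1. In the 4 windows below, each 5′ to 3′ on the strand of its gene, capitals mark these cores. MT2A and MT1X are shown as the metallothioneins with the most reads, SLC30A1 as a textbook MTF1 target and SLC30A5 as the transporter with the smallest adjusted p.
MT2A: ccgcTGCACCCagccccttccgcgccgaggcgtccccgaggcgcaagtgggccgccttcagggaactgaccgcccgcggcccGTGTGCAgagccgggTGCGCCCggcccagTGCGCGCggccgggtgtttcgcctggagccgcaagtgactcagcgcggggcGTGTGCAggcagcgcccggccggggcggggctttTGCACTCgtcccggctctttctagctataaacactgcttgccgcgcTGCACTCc
MT1X: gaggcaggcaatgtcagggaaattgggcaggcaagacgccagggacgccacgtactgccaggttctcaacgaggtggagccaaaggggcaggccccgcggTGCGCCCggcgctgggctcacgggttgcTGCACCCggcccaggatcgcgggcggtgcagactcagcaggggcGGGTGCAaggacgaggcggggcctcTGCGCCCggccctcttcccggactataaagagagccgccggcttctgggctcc
SLC30A1: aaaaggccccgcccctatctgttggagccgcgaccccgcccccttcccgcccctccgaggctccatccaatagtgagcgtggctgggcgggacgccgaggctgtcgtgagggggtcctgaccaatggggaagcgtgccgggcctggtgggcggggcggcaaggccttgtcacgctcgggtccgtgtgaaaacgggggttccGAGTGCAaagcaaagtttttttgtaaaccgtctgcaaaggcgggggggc
SLC30A5: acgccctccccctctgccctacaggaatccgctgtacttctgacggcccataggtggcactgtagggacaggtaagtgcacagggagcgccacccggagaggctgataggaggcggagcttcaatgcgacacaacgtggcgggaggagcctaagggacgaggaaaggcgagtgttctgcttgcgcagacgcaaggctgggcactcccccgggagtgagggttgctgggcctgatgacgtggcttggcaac
These windows lie on chromosome 16 from 56608334 to 56608583 for MT2A, on chromosome 16 from 56682220 to 56682469 for MT1X, on the minus strand of chromosome 1 from 211579162 to 211579411 for SLC30A1, and on chromosome 5 from 69093764 to 69094013 for SLC30A5. MT2A held 7 cores, MT1X 4, SLC30A1 1 and SLC30A5 0. MT1H, a metallothionein with no reads in these libraries, held 8. At least 1 core was present in 24.8% of all 35116 RefSeq windows of this length, and 3 or more were present in 1.58%. Of the 34 windows of members, 14 held at least 1 core and 4 held 3 or more, those of MT1H, MT2A, MT1X and SLC30A2. The STAT motif TTCNNNGAA stood in 3 members' windows, those of MT2A, SLC30A6 and SLC39A10. That is 8.82% of the 34 windows, against 6.57% of all windows. The antioxidant element core TGACNNNGC stood in 11 of the 34 windows, or 32.4%, against 10.9% of all windows. The window of SLC30A5 held it and those of SLC39A9 did not. The amino acid response core TGATGNAA stood in 0 of the 34, against 3.14% of all windows. A match is a description of letters, and no match says only that the letters are not in the window. The GENCODE models of the genes shown begin elsewhere than the RefSeq starts. That of SLC30A1 begins at 211578742, downstream of its window, so the bases just before that start were not searched. Those of SLC30A5 and MT2A begin at 69093646 and 56608199, upstream of their windows, and that of MT1X at 56682424, inside its window. The core counts hold for the RefSeq windows only.

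**Figure D1:**
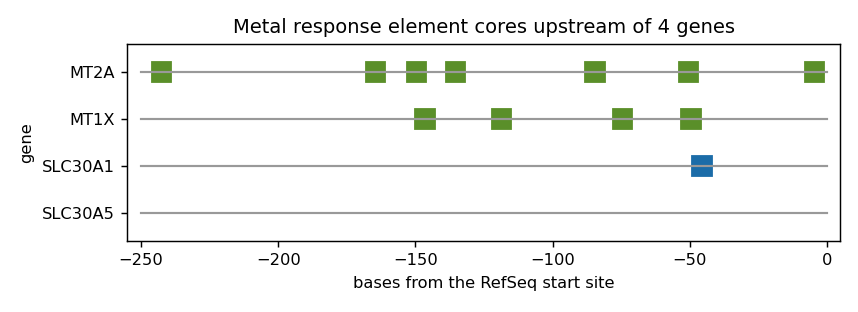
Positions of metal response element cores (boxes) in the 250 bases before the RefSeq start site of 4 genes, with the x axis in bases from the start site. In these windows MT2A carries 7 cores and MT1X 4, SLC30A1 has 1 close to its RefSeq start site and SLC30A5 has 0. The GENCODE models of these genes begin at other positions, and the bases just before those starts were not searched for SLC30A1.

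The comparison of S3I-201 with DMSO asks whether transcripts of zinc transport and storage changed when STAT3 was targeted. SLC30A5 and SLC39A9 were higher with S3I-201, each by 1.41-fold in the authors' deposited table. In bulk RNA, a change in each cell cannot be told apart from a change in the share of cells that express a gene, and the part of the marker values above was not tested. Both metallothioneins with many reads had negative values that did not pass. Of the 34 members, 24 had reads and 20 of these had an adjusted p. Of these 20, 2 passed 0.05 by the authors' DESeq2 adjusted p, both higher, and 18 did not pass. That is 10.0% of the members tested, against 5.90% of all 11912 genes tested, of which 4.45% were higher and 1.45% lower. At an unadjusted p under 0.05 stood 6 of the 20, 4 with positive and 2 with negative values, against 16.0% of all genes tested, 9.11% positive and 6.88% negative. The median log2 fold change of the 20 was 0.06, beside -0.02 over all genes tested, and their values ran from -0.54 to 0.49 in the authors' deposited table. The implied SE, which is the size of the log2 fold change over the normal quantile of its p-value, was 0.13 to 0.25 for these members, with a median of 0.18 that equals that of all genes tested. The median size of their log2 fold changes, 0.18, was thus as large as the median implied SE.

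**Figure D2:**
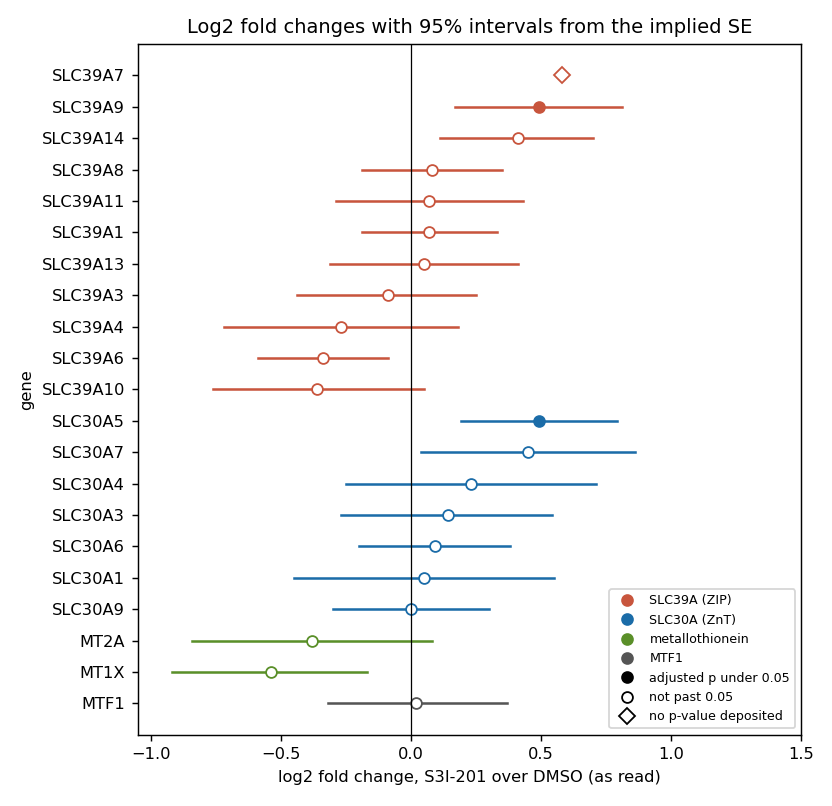
Log2 fold change of S3I-201 over DMSO (x axis) for the 20 members with an adjusted p and for SLC39A7, by family. Lines are 95% intervals from the implied SE, filled circles passed an adjusted p of 0.05 and the diamond marks SLC39A7, which has no p-value. The filled circles are SLC39A9 and SLC30A5, both at 0.49, and MT1X has the lowest value at -0.54.

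The SLC30A family comprises the exporters and organelle loaders. Of its 10 genes, 7 had an adjusted p, 1 was higher and 6 did not pass, with a median log2 fold change of 0.14. Of all genes tested, 5.90% were called, 4.45% of them all as higher. All 7 values were above 0, between 0.00 and 0.49 in the authors' deposited table, which is a description of estimates and not of changes. Values above 0 were held by 46.4% of all genes tested. SLC30A5, which forms a heterodimer with SLC30A6 that loads zinc into the Golgi apparatus for secreted enzymes such as alkaline phosphatases, had in the authors' deposited table a mean of 703 and a log2 fold change of 0.49 (95% interval 0.19 to 0.79, implied SE 0.15, DESeq2 adjusted p = 0.0252). SLC30A5 spans chromosome 5 from 69093646 to 69131069 (hg38, GENCODE 29), and 10.5% of its exon bases lie under an antisense gene on the opposite strand. The library kit does not mark strand, so reads of the pair cannot be told apart there. Its partner SLC30A6 had 0.09 in the authors' deposited table (95% interval -0.20 to 0.38, DESeq2 adjusted p = 0.854). SLC30A7, the other loader of the early secretory pathway, had 0.45 in the authors' deposited table (95% interval 0.04 to 0.86), with an unadjusted p of 0.0316 that did not pass adjustment (DESeq2 adjusted p = 0.244). The intervals of SLC30A5 and SLC30A6 overlap, and the difference between partners was not tested.

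SLC30A1, the zinc exporter of the cell surface and a target of MTF1, had in the authors' deposited table a mean of 223 and a log2 fold change of 0.05 (DESeq2 adjusted p = 0.960). Its 95% interval, -0.45 to 0.55, was the widest of the 20 with the largest implied SE, 0.25, and so holds changes of the size seen for SLC30A5. SLC30A9, a mitochondrial and nuclear protein of the family, had 0.00 in the authors' deposited table (95% interval -0.30 to 0.30). The vesicle loaders SLC30A3 and SLC30A4 had 0.14 and 0.23 in the authors' deposited table, with DESeq2 adjusted p-values of 0.843 and 0.743. SLC30A3 is best known for loading zinc into synaptic vesicles and SLC30A4 for endosomes. The 3 remaining genes, SLC30A2, SLC30A8 of pancreatic beta cells and SLC30A10, a manganese exporter, were listed at 0.

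The SLC39A family comprises the importers. Of its 14 genes, 10 had an adjusted p, 1 was higher and 9 did not pass, with a median of 0.06 and 6 values above 0 against 4 below. Over all genes tested, 5.90% were called and 4.45% were called higher, with a median of -0.02. SLC39A9, a Golgi member of the family, had in the authors' deposited table a mean of 1871 and a log2 fold change of 0.49 (95% interval 0.17 to 0.81, implied SE 0.16, DESeq2 adjusted p = 0.0445). SLC39A9 lies on chromosome 14 from 69398015 to 69462388, and no other annotated gene shares its exon bases. When the p-values of all 16974 genes with one were adjusted together, SLC39A9 did not pass (adjusted p = 0.0627). SLC39A14, a cell-surface carrier of zinc, iron and manganese that interleukin-6 induces in mouse liver, had a mean of 1851 and 0.41 in the authors' deposited table (95% interval 0.11 to 0.70). It did not pass (DESeq2 adjusted p = 0.0973), except with the abundance trend of the fold changes removed (adjusted p = 0.0490).

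SLC39A7, which releases zinc from the endoplasmic reticulum, had the largest log2 fold change of the members, 0.58, at their highest mean, 2061, in the authors' deposited table. It carries no p-value, as DESeq2 by default reports a gene with an outlying count in at least 1 library. This was the case for 83 genes, or 0.487% of those with reads. No error can be given for it, and the pooled values do not show which library stood apart. SLC39A13, a carrier of the same compartments that is needed for connective tissue, had 0.05 in the authors' deposited table (95% interval -0.31 to 0.41).

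Grouped by where the proteins reside, a grouping made after the values were seen, the 6 carriers of the early secretory pathway were SLC39A7, SLC39A9, SLC39A13, SLC30A5, SLC30A6 and SLC30A7. Of these, 2 were higher, 3 did not pass and SLC39A7 had no p-value, with a median of 0.45 over the 5 with an adjusted p. Of all genes tested, 5.90% were called. The 5 values were 0.05 for SLC39A13, 0.09 for SLC30A6, 0.45 for SLC30A7 and 0.49 for both SLC30A5 and SLC39A9. SLC39A11, SLC30A3, SLC30A4 and SLC30A9, at 0.07, 0.14, 0.23 and 0.00, were placed in neither group. The 8 cell-surface carriers with an adjusted p had 0 calls by the authors' DESeq2 adjusted p and 2 at an unadjusted p under 0.05, with a median of -0.02. As the grouping followed the values, the 2 medians are a description and no test of a difference by site.

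SLC39A6 and SLC39A10 are close relatives that form a heteromer at the cell surface, and slc39a6 acts downstream of Stat3 in the zebrafish gastrula. SLC39A6 had in the authors' deposited table a mean of 1274 and a log2 fold change of -0.34 (95% interval -0.59 to -0.09), with an unadjusted p of 0.00779 that did not pass (DESeq2 adjusted p = 0.102). SLC39A10 had -0.36 in the authors' deposited table (95% interval -0.76 to 0.05, DESeq2 adjusted p = 0.428). Both estimates are of like size and below 0, and neither passed. SLC39A1, a general importer, had 0.07 in the authors' deposited table (95% interval -0.19 to 0.33). In GENCODE 29, 60.8% of its exon bases also belong to another gene model on the same strand, and how such reads were assigned is not given in the sources used here. SLC39A8, a carrier of zinc and manganese, had 0.08, and SLC39A11 had 0.07 in the authors' deposited table, with DESeq2 adjusted p-values of 0.859 and 0.922. The importer SLC39A3 had -0.09 and the intestinal importer SLC39A4 had -0.27 in the authors' deposited table, and DESeq2 adjusted p-values of 0.882 and 0.663.

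**Figure D3:**
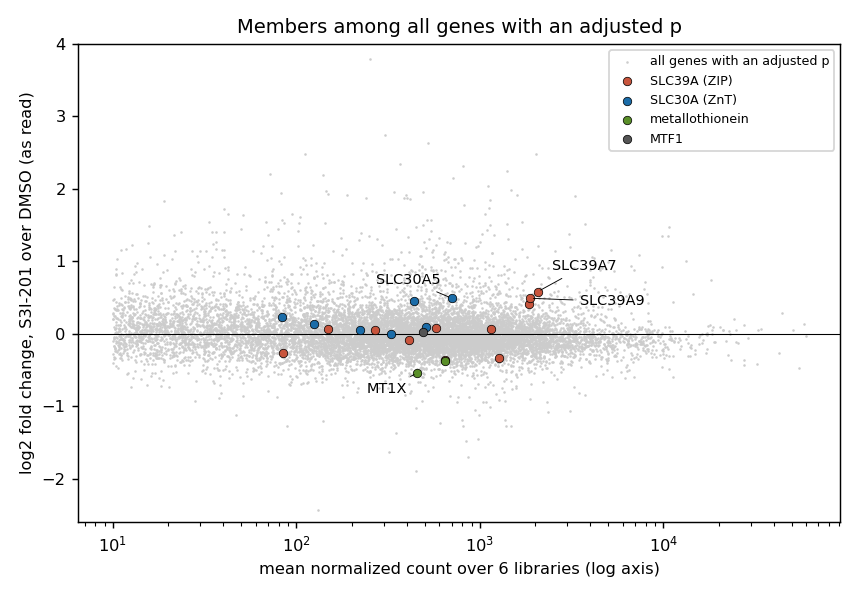
Log2 fold change of S3I-201 over DMSO (y axis) against the mean normalized count on a log axis for all 11912 genes with an adjusted p (grey) and for the members by family, with SLC39A7 added although it has no adjusted p. Members stay between -0.54 for MT1X and 0.58 for SLC39A7, inside a range of all genes from -2.44 to 3.80.

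Metallothioneins had reads in few of their genes. Of the 15 metallothionein genes and pseudogenes of the chromosome 16 cluster in the deposited table, which spans 119 kb from 56565049 to 56684196, 12 were listed at 0. A count of 0 in the 6 libraries allows up to 3 reads in all, or 0.0420 counts per 1000000, which covers counting error only. The 5 members at 0 were MT1E, MT1G, MT1H, MT1M and MT3. MT2A, the third gene of the cluster, had a mean of 646 and MT1X, the last, 456 in the authors' deposited table. MT1F, between them, had a mean of 0.966.

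In the authors' deposited table MT1X had the lowest log2 fold change of the members, -0.54 (95% interval -0.92 to -0.17, implied SE 0.19). Its unadjusted p was 0.00425 and it did not pass (DESeq2 adjusted p = 0.0666). MT2A had -0.38 in the authors' deposited table (95% interval -0.84 to 0.08, DESeq2 adjusted p = 0.469). The interval of MT1X excludes 0 and that of MT2A does not, and the intervals overlap over most of their length. MTF1, the factor that drives both genes, had a mean of 488 and 0.02 in the authors' deposited table (95% interval -0.32 to 0.37, DESeq2 adjusted p = 0.972). Metallothionein transcripts resemble each other, which bears on how reads were assigned. Of the 50-base stretches of MT1X transcripts in GENCODE 29, 3.64% also occur in transcripts of other metallothioneins and their pseudogenes, against 3.02% for MT2A, 16.5% for MT1G and 15.8% for MT1H. With all other genes counted, the share for MT1X was 18.3%, and 39.0% of its exon bases also belong to the gene model AC026461.1 on the same strand. The treatment of reads that match several genes is not given in the sources used here, and its part in the zeros and in the values of MT1X was not tested.

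The whole reads behind the 3 weakest members could be recovered from the deposited means, since 1 combination of reads fitted each. The libraries are given in the order of their size factors, 1.27, 1.19 and 0.573 for those read as S3I-201 and 1.24, 1.02 and 0.948 for those read as DMSO. MT1F had 2, 0 and 0 reads in the libraries read as S3I-201, against 4, 1 and 0 in those read as DMSO. SLC39A2, an importer best known from skin, had 4, 2 and 2 reads in the libraries read as S3I-201, against 0, 3 and 1 in those read as DMSO. SLC39A5, an importer of gut and pancreas, had 3, 3 and 1 reads in the libraries read as S3I-201, against 5, 2 and 3 in those read as DMSO. The groups overlap for all 3 genes. Their log2 fold changes of -0.06, 0.12 and -0.07 in the authors' deposited table had no adjusted p, and unadjusted p-values were 0.584, 0.486 and 0.708 by the authors' DESeq2. At 7, 12 and 17 reads in all, a change was not detectable at this depth.

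Levels can be set side by side only per length, taken here as the merged exon bases of all annotated transcripts of a gene. These can exceed the length of any 1 transcript. MT2A and MT1X have 991 and 823 merged bases, against 396 for the metallothionein MT1A, and SLC39A7 has 2456. The order of SLC39A7, MT2A and MT1X thus depends on this divisor, and levels per single transcript were not computed. Divided by the merged exon bases of GENCODE 29, SLC39A7 had the highest mean normalized count per kb, 839, followed by MT2A at 652 and MT1X at 554. SLC39A14, SLC39A9, SLC39A6 and SLC39A1 came next at 349, 347, 346 and 340 counts per kb, an order that has no error and cannot separate neighbours. SLC30A5, at 139, was the highest of its family, and SLC30A4, at 11.7, the lowest of the 20 with an adjusted p. SLC39A2, MT1F and SLC39A5 had 1.45, 1.32 and 1.23 counts per kb.

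**Figure D4:**
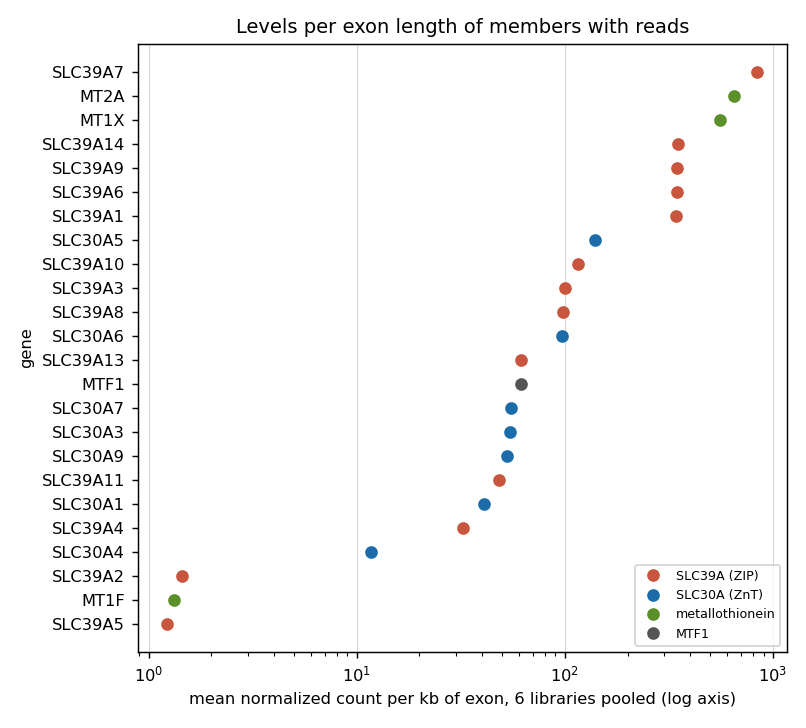
Mean normalized count per kb of merged exon on a log axis (x axis) for the 24 members with reads, pooled over the 6 libraries, so that there is no error bar. With merged exon as the divisor, SLC39A7, MT2A and MT1X are highest at 839, 652 and 554, and SLC39A5 is lowest at 1.23.

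The calls were recounted with 2 other sets of genes in the adjustment of the deposited p-values, and with p-values computed anew from the implied SE after the abundance trend or the median of all genes was taken off the fold changes. Of the 6 members at an unadjusted p under 0.05, SLC30A5 was past 0.05 under all 5 adjustments, with adjusted p-values of 0.0116 to 0.0356. SLC39A9 was past it under 4 of them, and SLC39A14 under 1, with a p-value computed anew. MT1X ranged from 0.0614 to 0.0935, SLC39A6 from 0.0948 to 0.188 and SLC30A7 from 0.209 to 0.338, with 0 passes each. Called were 3.79% of the 16974 genes with a p-value when no filter on low means was set, and 6.50% of the 9373 with a mean of at least 100. Of the 11912 genes with an adjusted p, 6.02% were called with the abundance trend removed and 5.94% with the median of all genes removed. As deposited, 0 members passed an adjusted p of 0.01, which 3.71% of all genes did, and 4 passed 0.1, which 7.54% did. A minimum log2 fold change of 0.5 left 0 members, against 5.34% of all genes, since both called members stand at 0.49.

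**Figure D5:**
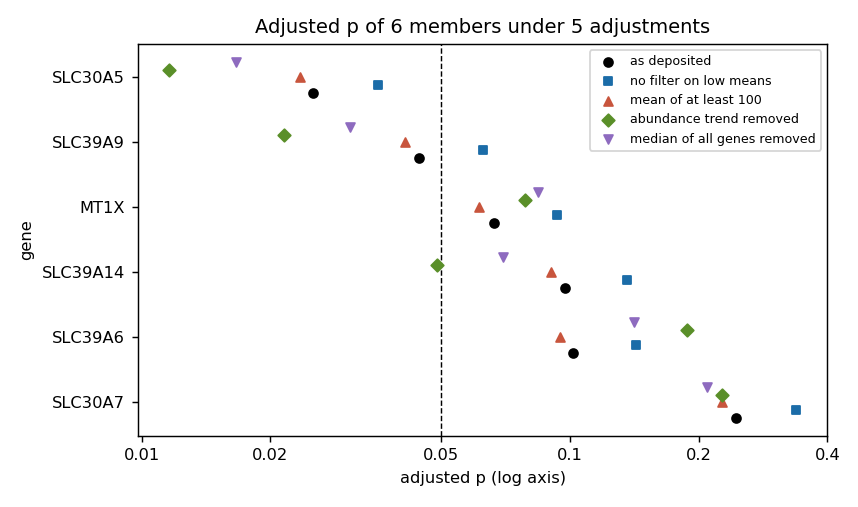
Adjusted p on a log axis (x axis) of the 6 members with an unadjusted p under 0.05, as deposited and under 4 other adjustments, with the dashed line at 0.05. SLC30A5 stays left of the line with all 5 symbols, SLC39A9 with 4 and SLC39A14 with 1.

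Other genes linked to zinc and copper handling were read beside the members. Of 9 tested genes linked to zinc outside these families, not all of them carriers, 0 were past 0.05 in DESeq2's adjusted p. In this list 1 gene had an unadjusted p under 0.05 by the authors' DESeq2, and the median log2 fold change was -0.15. TRPM2, a cation channel, had -0.48 (DESeq2 adjusted p = 0.121) and METAP1, a methionine aminopeptidase, had -0.21 (DESeq2 adjusted p = 0.465), both as log2 fold changes from the authors' deposited table. Of 17 tested genes of copper handling, 1 was higher, 0 were lower and 16 did not pass, with a median of -0.09. Of all genes tested 5.90% were called, so 1 of 17 is near the share of all genes. COX19, which helps deliver copper to cytochrome oxidase in mitochondria, was higher, with 0.75 in the authors' deposited table as its log2 fold change (implied SE 0.16, DESeq2 adjusted p = 1.69e-04).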

How the data were processed

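RNA-seq was made from REH cells with S3I-201 or DMSO for 6 h, 3 libraries per group, with a kit that does not mark strand, per the labels' protocols. The submitters' processing notes name hg38, bcl2fastq 2.19, Trimmomatic, Bowtie2, Picard, featureCounts and DESeq2, with no role or order. Neither annotation nor model formula is given in the sources used here.

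Per the file headers, the authors deposited a mean normalized count, which is a signal pooled over libraries, beside a log2 fold change, its p-value and an adjusted p. Adjusted p-values were given for 11912 genes, all with a mean of at least 10.0, which adjusting the deposited p-values again by Benjamini-Hochberg matched within 0.675%. Sizes between 0.0334 and 0.0363 on the log2 scale belonged to genes with 1 read in the authors' deposited table, so values appear shrunken and those of weak genes understated.

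With no counts per library, the authors' adjusted p at 0.05 was used. The 95% intervals are the log2 fold change plus or minus 1.96 times the implied SE. Size factors came from the means of genes with 1 read, and their sums gave all 108 distinct means under 0.6 within 1e-08. The calculations were tested on simulated data. Alternatives were thresholds of 0.01 and 0.1, a minimum log2 fold change of 0.5, adjusting every gene that has a p-value or only those with a mean of at least 100, and removal of the median of all genes or of 20 abundance bins. Members with an adjusted p were all named, and of each other list the called genes or, with none, the 2 with the smallest adjusted p. Members and lists were chosen with earlier results of these data known. Python 3.11.15, pandas 2.3.3, scipy 1.17.1 and matplotlib 3.10.9 were used.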

Additional observations from a re-analysis of the deposited data

How the results depend on the processing

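Of the 20 members with an adjusted p, 2 passed as deposited, against 5.90% of all genes tested. The number was 0 at a threshold of 0.01 (3.71% of all genes), 4 at 0.1 (7.54%) and 0 with a minimum log2 fold change of 0.5 (5.34%). With no filter on low means it was 1 of 23 (3.79% of all genes), and with a mean of at least 100 it was 2 of 18 (6.50%). It was 3 of 20 with the abundance trend removed (6.02%) and 2 of 20 with the median of all genes removed (5.94%). The 2 called fold changes lie just under the minimum fold. Medians of all members and of the 3 families moved by less than the median implied SE, and no fold change of a called member changed sign. For single members, 76 of 78 alternative values kept their side of the threshold, the exceptions being SLC39A9 with no filter on low means and SLC39A14 with the abundance trend removed. No paired analysis was possible because the deposited table holds no values per library, and leaving out single replicates could not be run for the same reason. Depth limits the 3 members with 7 to 17 reads and the 10 at 0.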
